A study of Mus musculus with 3 samples.

Results

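The elastic fibre and microfibril genes were read as a list of 10 genes: Eln, Fbn1, Fbn2, Fbln1, Fbln2, Fbln5, Efemp1, Efemp2, Mfap4 and Mfap5. A probe set counted for a gene when that gene was its single annotated symbol, which gave 15 probe sets for 8 of the 10 genes. No probe set was named for the other 2 genes, Fbn1 and Efemp2, in the annotation used here, so they were not analysed. All 8 genes with a probe set were measured, out of 11169 measured genes in all. Measured means that at least 1 array read the gene at or above the floor described below. RNA came from 3 cultures of the mouse mesenchymal cell line C3H10T1/2, all grown in α-MEM with fetal bovine serum. The first carried a pMIGR retroviral vector with the coding sequence of Venus-Mkx, which joins the fluorescent protein Venus to the homeobox factor Mohawk (Mkx). The second carried the vector with Venus alone, and the third was the line itself with no vector named in its label. According to the study's methods, virus was given in medium with puromycin. Each culture was measured on 1 Affymetrix mouse genome array. No spread between replicates can be given and no test was possible, and what goes with Mkx cannot be told apart from chance variation among cultures and arrays.

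Elastic fibres give tissues their recoil. They hold a core of crosslinked elastin within a sheath of microfibrils, which are threads of fibrillin. Fibulins and microfibril-associated proteins bind to both, lysyl oxidases crosslink the elastin, and latent TGFβ-binding proteins tie growth factor complexes to the microfibrils. The annulus fibrosus of the intervertebral disc, the tissue in which the study follows Mkx, holds elastic fibres beside its collagen.

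Values are given on the log2 scale of the deposited table. The floor was the median of all values, 4.34, and values below it were treated as not told from background. It is a convention, since no background level was measured. The 3 arrays had medians between 4.34 and 4.39. Over measured genes, the SD of the log2 difference was 0.94 for the array labelled Venus-Mkx minus Venus and 0.34 for Venus minus C3H10T1/2. The probe set of Mkx read 2.71 on the array labelled Venus-Mkx, against 7.43 on Venus and 6.88 on C3H10T1/2. This goes against the label, although a probe set outside the sequence in the vector would check nothing, and its position was not examined here. The type I collagen gene Col1a1 read 13.22 on the array labelled Venus-Mkx, 11.88 on Venus and 11.52 on C3H10T1/2. The 9 mesenchymal markers, Col1a1 among them, were at or above the floor on all 3 arrays. Of the 9, 5 read above Venus and 4 below, where 42.8% and 45.8% of all measured genes did. Their median log2 difference from Venus was 0.07, and that of Col1a2 was 0.15, so Col1a1 does not stand for the list. Of 7 macrophage markers 3 were measured, and of 6 endothelial and 6 epithelial markers 1 each, whereas Ptprc, Adgre1, Pecam1, Cdh5, Cdh1 and Krt18 were below the floor on every array. The epithelial marker measured, Epcam, read 7.60 on the array labelled Venus-Mkx, 7.03 on Venus and 6.74 on C3H10T1/2. In the deposited table, 24.6% of probe sets held one and the same value on all 3 arrays, so that equal values are no measurement of equal levels.

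The array labelled Venus-Mkx stood away from both controls in the fibulin genes and in Fbn2, in both directions. Fbln1 and Efemp1 read higher than on both control arrays by 2-fold or more, Fbn2, Fbln2 and Fbln5 were at least 2-fold lower, and Eln, Mfap4 and Mfap5 were neither. These were 2 of 8 members higher, where 6.82% of all measured genes were higher, and 3 of 8 lower, where 5.34% of all measured genes were lower. At the probe sets used, Fbln1 and Mfap4 reached the floor only on the array labelled Venus-Mkx, so those probe sets had to read higher there. The median log2 difference of the 8 members from Venus was 0.021, against 0.00 for all measured genes, and its sign changed with the processing. Of the members, 4 read above Venus and 4 below, where 42.8% and 45.8% of all measured genes did. Against Venus alone, 3 of 8 members were at least 2-fold higher, where 7.42% of all measured genes were, and 3 were lower, where 6.68% were, the added member being Mfap4 as read, below the floor on Venus. Against C3H10T1/2 alone, 2 were higher, where 8.74% of all measured genes were, and 3 were lower, where 6.8% were. Without regard to sign, the median was 2.08 for the members and 0.28 for all measured genes.

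**Figure D1:**
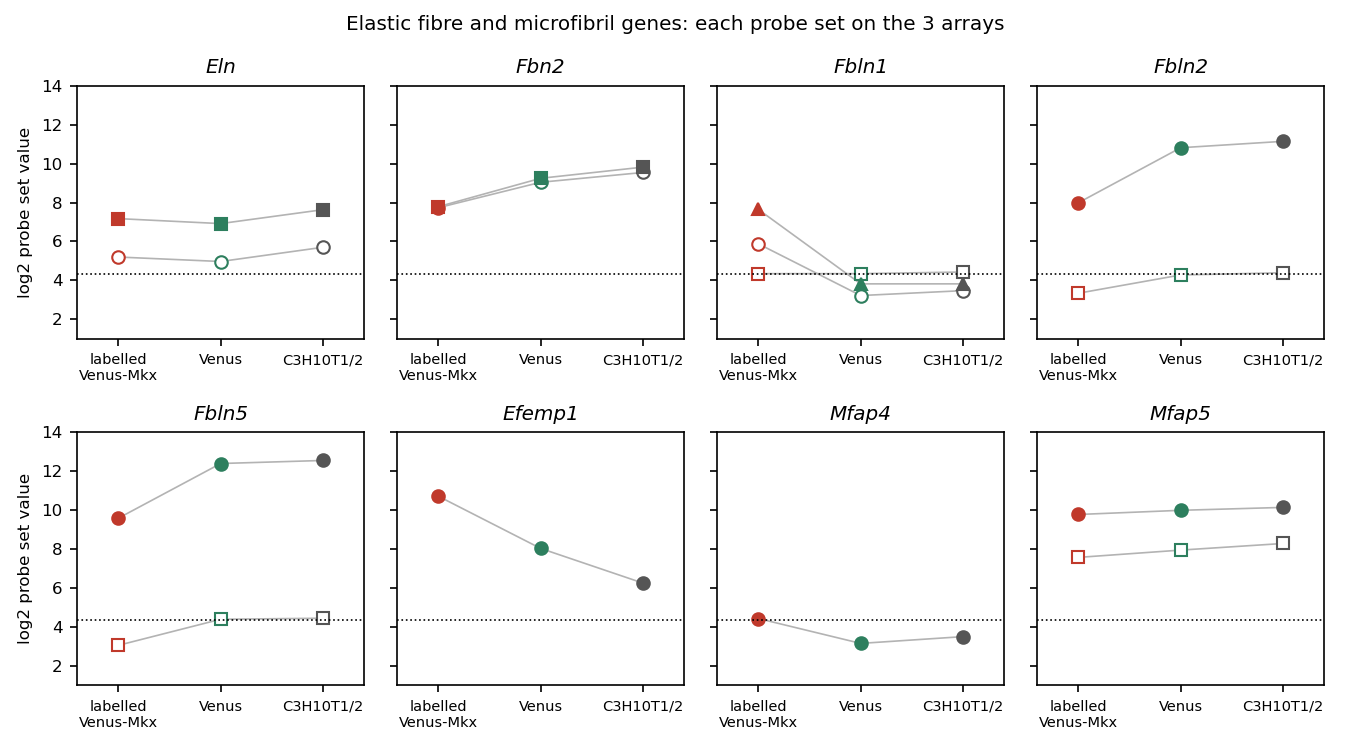
Log2 values of the 15 probe sets (vertical axis) on the array labelled Venus-Mkx, on Venus and on C3H10T1/2 (horizontal axis), 1 array per condition. Filled symbols are the probe set used for a gene, open symbols its other probe sets, grey lines join the values of 1 probe set, and the dotted line is the floor of 4.34. The filled symbols of Fbln2, Fbln5 and Fbn2 are lowest, and those of Fbln1 and Efemp1 highest, on the array labelled Venus-Mkx.

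The promoters of Fbln1, Efemp1, Fbln2 and Fbln5 are printed because these members had the largest differences from Venus, the first 2 above it and the other 2 below. RefSeq tables of GRCm38.p6 held 10 promoter windows for 6 of the 10 genes, among them Fbn1 and Efemp2. A window runs from 250 bases before a transcription start to 50 bases from the start onward. Of several windows of a gene the one at its outermost start is shown, as for Fbln1 and Fbln5. For Efemp1 and Fbln2 the table held 1 window, which was not at the outermost start of the gene. The windows are chr15:85205699-85205998 on the plus strand for Fbln1, chr11:28852955-28853254 on the plus strand for Efemp1, chr6:91212514-91212813 on the plus strand for Fbln2 and chr12:101819070-101819369 on the minus strand for Fbln5. Capitals mark matches to the motifs described after the sequences.
Fbln1: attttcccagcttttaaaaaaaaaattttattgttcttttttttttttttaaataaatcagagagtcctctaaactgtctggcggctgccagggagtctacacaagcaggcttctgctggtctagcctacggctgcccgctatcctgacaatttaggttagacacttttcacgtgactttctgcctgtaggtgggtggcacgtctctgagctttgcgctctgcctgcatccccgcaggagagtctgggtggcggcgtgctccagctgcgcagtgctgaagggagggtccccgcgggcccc
Efemp1: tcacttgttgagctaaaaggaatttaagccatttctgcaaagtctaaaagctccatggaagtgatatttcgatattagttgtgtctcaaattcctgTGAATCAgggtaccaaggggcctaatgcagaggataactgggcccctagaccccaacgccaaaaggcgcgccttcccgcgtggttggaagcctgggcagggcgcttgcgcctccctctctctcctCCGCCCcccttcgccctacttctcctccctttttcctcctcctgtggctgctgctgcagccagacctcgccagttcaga
Fbln2: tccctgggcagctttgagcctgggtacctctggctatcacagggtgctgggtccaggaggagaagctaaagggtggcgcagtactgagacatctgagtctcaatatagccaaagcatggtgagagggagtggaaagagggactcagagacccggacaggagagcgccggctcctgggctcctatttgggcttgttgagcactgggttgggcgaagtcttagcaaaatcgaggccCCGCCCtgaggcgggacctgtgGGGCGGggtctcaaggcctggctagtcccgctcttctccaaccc
Fbln5: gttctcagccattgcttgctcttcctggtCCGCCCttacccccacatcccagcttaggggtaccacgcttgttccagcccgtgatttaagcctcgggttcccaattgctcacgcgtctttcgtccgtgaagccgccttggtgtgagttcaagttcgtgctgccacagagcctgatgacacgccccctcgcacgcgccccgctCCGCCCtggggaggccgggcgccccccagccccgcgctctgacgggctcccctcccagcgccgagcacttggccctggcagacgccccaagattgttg

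Motifs were searched on both strands in the 10 windows and in all 32851 promoter windows of the table. The GC box GGGCGG, bound by Sp1, was in 8 of the 10 windows and in 35.7% of all windows. The 8 windows belonged to 6 genes, among them Fbn1 and Efemp2, and windows of Efemp2 overlapped, so they are not separate promoters. The GC box lay once in the printed window of Efemp1, 29 bases before the start, and 2 times each in those of Fbln2 and Fbln5. It was absent from the printed window of Fbln1, but a second window of that gene, which overlaps the first, held it 2 times. The AP-1 motif TGANTCA was in the window of Efemp1 alone, 154 bases before the start, and in 7.81% of all windows. The core of the interferon response element was in 2 of the 10 windows, that of Fbn1 and a second one of Fbln5 that is not printed, and in 3.44% of all windows. Neither the TATA box TATAAA, which 13.6% of all windows held, nor ACANNTGT, a palindrome bound by Iroquois homeobox proteins in Drosophila and held by 7.38%, was in any of the 10. The marked matches did not overlap one another. The printed windows differed in CpG content, with 12 CpG in Fbln1, 11 in Efemp1, 10 in Fbln2 and 24 in Fbln5, against a median of 7 over all windows. The count depended on the window, since the second windows of Fbln1 and Fbln5, not printed, held 24 and 8. A match describes the letters in these windows only.

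Elastin is the core protein of the fibre, and its gene differed by less than 2-fold between the arrays. Eln (1420855_at) read 7.17 on the array labelled Venus-Mkx, 6.92 on Venus and 7.63 on C3H10T1/2. The second probe set, 1420854_at, read 5.20, 4.96 and 5.70 in the same order of arrays. Both probe sets were thus lowest on Venus and highest on C3H10T1/2, with the array labelled Venus-Mkx between them. The log2 difference of the array labelled Venus-Mkx was 0.26 from Venus and −0.46 from C3H10T1/2, so the sign depended on the control. The difference of Venus from C3H10T1/2 was larger, −0.72, and was lower than that of 99.0% of measured genes.

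Fbn2 encodes fibrillin-2, a microfibril protein made above all during development. Its probe set 1454830_at read 7.79 on the array labelled Venus-Mkx, 9.25 on Venus and 9.82 on C3H10T1/2, and 1422831_at read 7.73, 9.04 and 9.55. Both probe sets placed the array labelled Venus-Mkx lowest and C3H10T1/2 highest. For 1454830_at the level on the array labelled Venus-Mkx was 2.76-fold lower than on Venus and 4.11-fold lower than on C3H10T1/2. For 1422831_at it was 2.48-fold and 3.52-fold lower. Venus itself was 1.49-fold lower than C3H10T1/2 at 1454830_at, less than 2-fold.

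Fbln2 and Fbln5 were the members furthest below the controls. The protein of Fbln5 binds elastin and integrins and is needed for elastic fibre assembly in mice, and that of Fbln2 binds fibrillin, elastin and basement membrane proteins. Fbln5 (1416164_at) read 9.59 on the array labelled Venus-Mkx, 12.40 on Venus and 12.56 on C3H10T1/2. Fbln2 (1423407_a_at) read 7.99 on the array labelled Venus-Mkx, 10.82 on Venus and 11.15 on C3H10T1/2. In each gene the 2 control arrays lay much closer to each other than to the array labelled Venus-Mkx, which was far below, yet well above the floor. For Fbln2 the log2 difference of Venus from C3H10T1/2 was −0.33, lower than that of 94.9% of measured genes. The level of Fbln5 was 7.05-fold lower than on Venus and 7.86-fold lower than on C3H10T1/2. That of Fbln2 was 7.14-fold and 8.97-fold lower. The log2 differences from Venus were −2.82 for Fbln5 and −2.84 for Fbln2, and 1.02% and 0.985% of measured genes had a lower one. The second probe sets were near or below the floor. Fbln5 (1446377_at) read 3.04 on the array labelled Venus-Mkx, 4.39 on Venus and 4.44 on C3H10T1/2, and Fbln2 (1438375_at) read 3.33, 4.27 and 4.39. They ran in the same direction, but no fold beyond 1.07 is shown by them.

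Fbln1 was the member with the largest difference from Venus. It encodes a fibulin found in elastic fibres, in basement membranes and in blood plasma. Its probe set 1451119_a_at read 7.65 on the array labelled Venus-Mkx and 3.81 on both Venus and C3H10T1/2. Both controls were below the floor, so the level is given only as at least 9.89-fold higher on the array labelled Venus-Mkx. A second probe set, 1422540_at, read 5.88 on the array labelled Venus-Mkx, 3.21 on Venus and 3.46 on C3H10T1/2, at least 2.90-fold higher than on either control. The third, 1439688_at, read 4.34 on the array labelled Venus-Mkx and 4.34 on Venus, both just below the floor, and 4.42 on C3H10T1/2, just above it. At these values it gives no reading of a difference in either direction, so that 2 of the 3 probe sets carry the result.

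Efemp1 was the only member that differed at least 2-fold between the control arrays. Its protein is a short fibulin that binds a tissue inhibitor of metalloproteinases, TIMP-3. Its single probe set, 1427183_at, read 10.72 on the array labelled Venus-Mkx, 8.03 on Venus and 6.24 on C3H10T1/2. All 3 values were above the floor and wide apart. The level on the array labelled Venus-Mkx was 6.45-fold higher than on Venus and 22.3-fold higher than on C3H10T1/2. Venus was 3.45-fold higher than C3H10T1/2, a log2 difference of 1.79, and 0.394% of measured genes had a larger one. Of the log2 difference of 4.48 between the array labelled Venus-Mkx and C3H10T1/2, the difference of the array labelled Venus-Mkx from Venus, 2.69, was thus the larger portion.

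The microfibril-associated genes Mfap4 and Mfap5 did not differ at least 2-fold from both controls. Mfap5 encodes a small glycoprotein that binds fibrillin. Mfap5 (1418454_at) read 9.78 on the array labelled Venus-Mkx, 9.99 on Venus and 10.14 on C3H10T1/2, and 1449082_at read 7.57, 7.95 and 8.29. Both probe sets put the array labelled Venus-Mkx lowest, with log2 differences from Venus of −0.22 and −0.38. Mfap4, whose protein carries a fibrinogen-like domain and binds elastin and fibrillin, read 4.42 on the array labelled Venus-Mkx, 3.14 on Venus and 3.49 on C3H10T1/2. The first value was just above the floor and the control values below it, so that only a fold of at least 1.06 is shown.

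**Figure D2:**
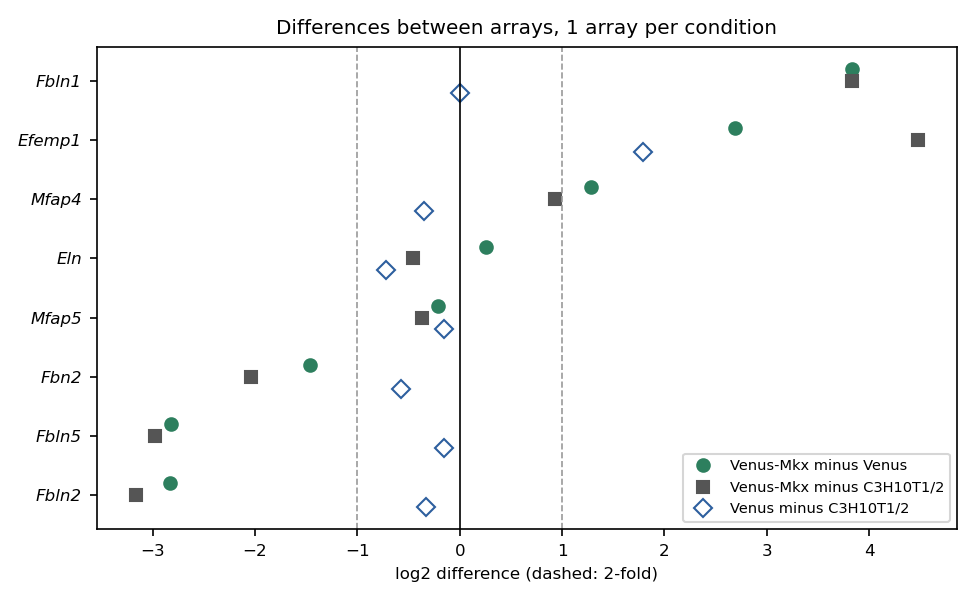
Log2 differences of the 8 members (horizontal axis, 0 means equal, dashed lines mark 2-fold) for the array labelled Venus-Mkx minus Venus, the array labelled Venus-Mkx minus C3H10T1/2, and Venus minus C3H10T1/2, 1 array per condition. Fbln1 and Mfap4 were below the floor on both controls. Fbln1 and Efemp1 lie right of the upper dashed line for both controls, Fbn2, Fbln5 and Fbln2 lie left of the lower one, and Efemp1 alone passes a dashed line for Venus minus C3H10T1/2.

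Between the control arrays Efemp1 was the only member that differed by 2-fold or more. The comparison of Venus with C3H10T1/2 asks what the vector without Mkx goes with. It had 1 of 8 members at least 2-fold higher on Venus, where 1.49% of all measured genes were, and 0 of 8 lower, where 0.555% were. The other members had log2 differences between −0.72 for Eln and 0.00 for Fbln1, which was below the floor on both arrays. In all, 6 members read lower on Venus, where 39.4% of all measured genes did, and 1 read higher, where 44.7% did. Mfap4, among the 6, was below the floor on both arrays. The median over the 8 was −0.24, against 0.00 over all measured genes. Without regard to sign, the median was 0.34 for the members and 0.10 for all measured genes. The differences of Eln and of Fbn2, −0.57, were lower than those of 99.0% and 98.3% of measured genes. The comparisons share the Venus and C3H10T1/2 arrays, so their values are not independent of each other.

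**Figure D3:**
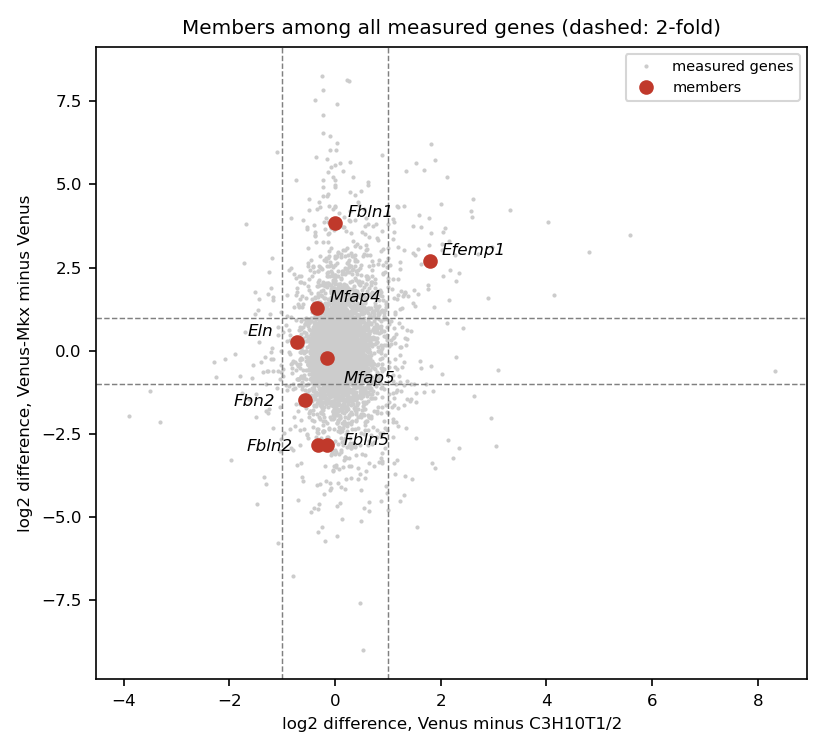
Log2 difference of the array labelled Venus-Mkx from Venus (vertical axis) against that of Venus from C3H10T1/2 (horizontal axis) for 11169 measured genes (grey) and the 8 members (red). Dashed lines mark 2-fold, and the 2 axes share the Venus array. Efemp1 lies beyond 2-fold on both axes, and Fbln1, Fbln2, Fbln5 and Fbn2 on the vertical axis with differences under 2-fold on the horizontal one.

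The genes whose pattern over the 3 arrays was closest to that of Fbln2 and of Fbln1 were taken by the Euclidean distance over the log2 differences of the array labelled Venus-Mkx from Venus and of Venus from C3H10T1/2. For Fbln2 they were Hivep3, Rhobtb3, Fbln5, Rnf125 and Actg2, at distances from 0.14 to 0.24. Fbln5 was thus among the 5 measured genes nearest to Fbln2. For Fbln1 they were Agt, Krt80, Elavl2, Rbp4 and Casp4, at distances from 0.12 to 0.21, and these rest in part on control values below the floor. With 3 arrays such a likeness is a description only.

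The other genes of the elastic fibre system were read from a list of 45 partner genes, of which 33 were measured. Of these, 2 were higher than both controls by 2-fold or more, 2 were lower and 29 were neither, where 6.82% of all measured genes were higher and 5.34% lower. The counts of the partners were near that background, and the 1 gene called in each direction among 17 microfibril partners and among 8 receptor genes is read against the same shares. The median log2 difference from Venus was −0.026 over the 33 partners. The lysyl oxidase genes, whose enzymes crosslink elastin and collagen, did not pass 2-fold in any of the comparisons. Lox read 13.00 on the array labelled Venus-Mkx, 13.02 on Venus and 13.09 on C3H10T1/2, near the top of the scale on every array. Loxl1, whose enzyme acts on elastin, read 10.81 on the array labelled Venus-Mkx, 10.63 on Venus and 10.24 on C3H10T1/2. Over the 5 measured crosslinking genes, with Loxl3, Loxl4 and the copper transporter gene Atp7a, the log2 differences of the array labelled Venus-Mkx ran from −0.11 to 0.18 against Venus and from −0.32 to 0.57 against C3H10T1/2. No probe set was named for Loxl2.

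Among 17 measured microfibril partners, Fbln7 was higher and Emilin2 lower. Fbln7, another fibulin gene, read 7.70 on the array labelled Venus-Mkx, 5.14 on Venus and 5.66 on C3H10T1/2. This was 5.90-fold higher than on Venus and 4.11-fold higher than on C3H10T1/2. Emilin2, whose protein belongs to a family of elastic fibre glycoproteins, read 6.45 on the array labelled Venus-Mkx, 8.56 on Venus and 8.25 on C3H10T1/2. It was 4.34-fold lower than on Venus and 3.48-fold lower than on C3H10T1/2. Both genes differed less between the controls than from the array labelled Venus-Mkx. Mfap2, which encodes a fibrillin-binding glycoprotein, read 5.40 on the array labelled Venus-Mkx and 5.16 on both controls. Of the genes of latent TGFβ-binding proteins, Ltbp1 read 7.43 on the array labelled Venus-Mkx, 8.61 on Venus and 7.93 on C3H10T1/2. Ltbp2 read 10.32 on the array labelled Venus-Mkx, 10.58 on Venus and 10.42 on C3H10T1/2. Ltbp3 read 11.50 on the array labelled Venus-Mkx, 10.63 on Venus and 10.39 on C3H10T1/2. Ltbp1 and Ltbp3 thus passed 2-fold against 1 control each, and Ltbp2 against neither.

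Proteases that cleave elastin were mostly below the floor. Only Mmp2, Mmp14 and Ctsl of the 9 listed were measured, none passed 2-fold against both controls, and Mmp7, Mmp9, Mmp12, Ctsk, Ctss and Elane were below the floor on every array. Mmp14, which encodes a membrane-bound protease, read 11.04 on the array labelled Venus-Mkx, 10.06 on Venus and 9.75 on C3H10T1/2. Of 8 measured receptor genes, Itgb8 was higher, Itgb3 lower and 6 neither. Itgb8, whose integrin activates latent TGFβ, read 6.22 on the array labelled Venus-Mkx, 4.99 on Venus and 5.09 on C3H10T1/2, which is 2.33-fold and 2.19-fold higher. Itgb3, an integrin chain that takes part in binding fibrillin, read 3.16 on the array labelled Venus-Mkx, 5.23 on Venus and 5.67 on C3H10T1/2. Because the first value was below the floor, Itgb3 is shown only to be at least 1.86-fold lower than on Venus and at least 2.52-fold lower than on C3H10T1/2. Itgav, the chain that pairs with both, read 10.44 on the array labelled Venus-Mkx, 11.43 on Venus and 11.59 on C3H10T1/2, and Itga5 and Itgb1 differed from both controls by less than 2-fold. Itga8 was above the floor on Venus only, with 2.91 on the array labelled Venus-Mkx, 5.77 on Venus and 2.73 on C3H10T1/2.

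**Figure D4:**
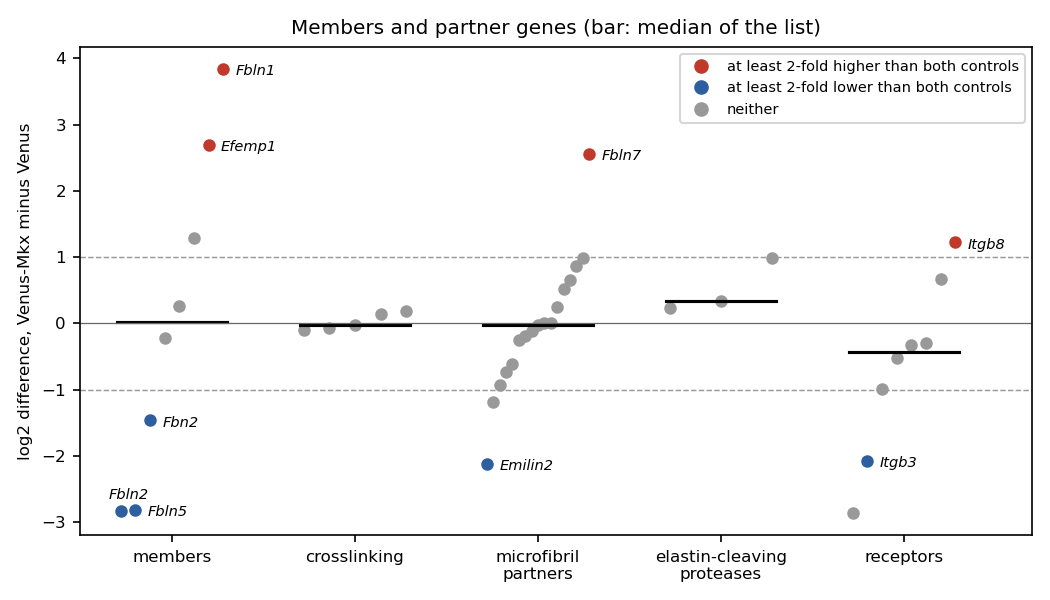
Log2 difference of the array labelled Venus-Mkx from Venus (vertical axis, dashed lines mark 2-fold) for the measured members and 4 lists of partner genes, with 1 array for each condition. A point stands for 1 gene, coloured by whether it was at least 2-fold higher or lower than both controls, and the bar is the median of its list. Members spread from −2.84 to 3.83, and the crosslinking genes from −0.11 to 0.18.

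Of 6 smooth muscle markers, a cell type that makes elastic fibres, 5 were measured and 2 were as read at least 2-fold lower than both controls, where 5.34% of all measured genes were lower. Acta2 read 10.42 on the array labelled Venus-Mkx, 13.17 on Venus and 13.04 on C3H10T1/2. Cnn1 read 4.24 on the array labelled Venus-Mkx, 5.67 on Venus and 5.26 on C3H10T1/2, and with the first value raised to the floor it was no longer 2-fold lower than on C3H10T1/2. Of the others, Tagln was 1.66-fold lower than on Venus, Des was equal on all 3 arrays, Smtn was equal to Venus, and Myh11, a defining marker of mature smooth muscle, was below the floor throughout. The summed linear level of the list, most of which was Acta2, was 2015 on the array labelled Venus-Mkx, 10225 on Venus and 9293 on C3H10T1/2. Of the 3 measured macrophage markers, Csf1r and Lyz2 were past 2-fold above both controls, where 6.82% of all measured genes were higher. Cd14 read 6.49 on the array labelled Venus-Mkx, 6.99 on Venus and 6.62 on C3H10T1/2, and the defining markers Ptprc, Adgre1, Itgam and Cd68 were below the floor on every array. The summed linear level of the macrophage list was 373 on the array labelled Venus-Mkx, 232 on Venus and 169 on C3H10T1/2. Tek, the only endothelial marker measured, read 5.95 on the array labelled Venus-Mkx, 4.02 on Venus and 4.53 on C3H10T1/2. The Venus value was below the floor, so Tek is shown to be at least 3.06-fold higher than on Venus. It was 2.69-fold higher than on C3H10T1/2, and 6.82% of all measured genes were higher than both controls. The part of these cell type markers in the values of the members was not tested.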

How the data were processed

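The authors hybridized biotinylated total RNA (GeneChip 3′ IVT Express kit) to 1 array per culture and deposited log2 probe set values. Their methods name MAS 5.0, but RMA, with no version given, stands in the notes on processing that the submitters supplied. The deposited log2 values were used as they stand, since the medians of the arrays were close. Detection calls were not used. How the exact ties arose was not tested.

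Of 45101 probe sets, 34945 had 1 gene symbol, 932 had several and 9160 had none in the annotation, and 64 control probe sets were left out. Symbols were updated through GRCm38.p6 gene identifiers. The probe set with the highest mean represented each of 18193 genes. Values below the floor were raised to it for a fold given as at least a size. The members and lists were chosen with earlier results of these data known. Named were all members, partners past 2-fold against both controls, further partners in list order, Mkx and the genes nearest in pattern. The values of Ltbp3, Mmp14, Itgav, Itga8 and the marker genes were added after they were seen. The counting rule was tested on simulated data with the same noise for every gene. These held no exact ties such as the deposited values have, so the test gives no rate of chance calls for these arrays. Alternatives covered the floor, the probe sets per gene, the scale, the control and the fold. Python 3.11.15, NumPy 2.4.6, pandas 2.3.3 and matplotlib 3.10.9 were used.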

Additional observations from a re-analysis of the deposited data

How the results depend on the processing

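The same 5 members passed 2-fold against both controls under each other floor, choice of probe sets and scale, and with values below the floor raised to it, a setting chosen after seeing the data. At 3-fold, Fbn2 was no longer counted as lower, and with Venus alone, the mean of the 2 controls or a threshold of 1.5-fold, Mfap4 was counted as higher. The median of the members was −0.41 against C3H10T1/2. Against Venus it was −0.067 with values raised to the floor and −0.215 under a floor at the 75th percentile of all values. With the mean of all probe sets, or with arrays centred on their medians, it was −0.026, and with quantile normalization 0.054. The sign of the median from Venus thus depended on the processing. One member, Eln, was lower on Venus than on C3H10T1/2 at 1.5-fold. Over the mean of all probe sets, the difference from Venus was 2.17 for Fbln1, −1.89 for Fbln2 and −2.08 for Fbln5.

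Of the 33 measured partners, 5 were higher against C3H10T1/2 alone, where 8.74% of all measured genes were. Higher partners numbered 4 against the mean of the controls, 6 at 1.5-fold and 1 at 3-fold. Under a floor at the 75th percentile, 1 of 23 was higher. As for lower partners, 4 of 33 were counted against Venus alone, where 6.68% of all measured genes were lower. Lower partners numbered 4 against the mean of the controls and 5 at 1.5-fold. Under the 75th percentile floor 1 of 23 was lower, and with values raised to the floor 1 of 33, where Itgb3 was lost. Shares of all measured genes were computed only at 2-fold with the floor of 4.34, and not for the mean of the controls. The other counts, of partners or members, thus have no share beside them. For counts, a change of more than 1.5 times was taken as a move, and for medians and single members a change of more than 0.34, the SD between the controls. No paired analysis was possible because each condition had 1 array. Values below the floor were not read as levels, so none is given for Mfap4 on the control arrays. The same holds there for Fbln1 at its 2 probe sets that were higher on the array labelled Venus-Mkx.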
